A study of Mus musculus with 99 samples.

Results

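Hearts were compared by how much transcript of the atrial light chains Myl7 and Myl4 their arrays held. The arrays were chosen by a score, the mean log2 level of Myl7 and Myl4 (brightest probe set of each) minus the mean of the array's strain group. Of 97 ranked arrays, the 32 of highest score (high-score hearts) were compared with the 32 of lowest score (low-score hearts), with 33 arrays between them (middle hearts). All animals were male mice on a chow diet, 16 weeks old per the protocol, untreated, with 1 Affymetrix HT_MG-430A array of heart RNA per strain. The age labels of the samples differ from the protocol: they rise along the sample order from 16 to 113 weeks and were not used. Of the 99 arrays of the series, CAST/EiJ and B6cC3-1/KccJ were not ranked. The high-score hearts came from 12 BXD, 9 BXA, 3 AXB and 3 BXH recombinant inbred strains and 5 classical inbred strains. The low-score hearts came from 7 BXD, 4 BXA, 5 AXB, 5 BXH and 11 classical strains. A recombinant inbred strain is a fixed mosaic of its parents, C57BL/6J with DBA/2J (BXD), with A/J (AXB, BXA) or with C3H/HeJ (BXH). The low-score hearts include BXD24/TyJ-Cep290<rd16>/J, a BXD24 line named for the rd16 allele of the cilium gene Cep290, and the high-score hearts include BXD29-Tlr4<lps-2J>/J, a BXD29 line named for an lps allele of the endotoxin receptor gene Tlr4. The labels call each sample heart and say nothing of which chambers were taken. Since each strain had a single array, errors and p-values measure how arrays of different strains varied. Strain, animal, dissection and technical variation cannot be told apart in them.

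The mammalian heart has thin-walled atria, which receive blood, and thick-walled ventricles, which pump it out. Atrial muscle cells use their own myosin light chains, encoded by Myl7 and Myl4, while ventricular cells use Myl2 and Myl3. Atrial cells also store atrial natriuretic peptide, the product of Nppa, in granules and release it when the wall is stretched. Transcription factors such as Tbx5 and Nr2f2 take part in forming the atria and keeping their identity. In RNA of a whole organ, fewer cells of a type and less RNA per cell cannot be told apart.

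The score ran from 0.20 to 0.59 log2 units in high-score hearts (median 0.34) and from -2.98 to -0.04 in low-score hearts (median -0.27). Of the arrays just inside and outside the upper limit, the scores were 0.198 and 0.193, and at the lower limit -0.040 inside and -0.037 outside, so the limits cut through a continuous range. Myl7 lay between 11.89 and 12.42 log2 units in high-score hearts and between 8.62 and 11.88 in low-score hearts. Myl4 lay between 11.24 and 12.09 in high-score hearts and between 8.05 and 11.59 in low-score hearts. These values chose the members and were not tested. Among the low-score hearts 3 arrays stood apart, BXA11/PgnJ at -2.98, BXD11/TyJ at -2.10 and BXD24/TyJ-Cep290<rd16>/J at -1.14, while the next lowest, AXB6/PgnJ, had -0.69. The array of BXD24/TyJ, the other line of that name, scored -0.01 and lay among the middle hearts. BXA11/PgnJ also pulled down the mean of its group: with it 9 BXA arrays were high-score, 0 middle and 4 low-score, while after the 3 arrays were left out and the ranking made again (31 against 31 arrays) 5 BXA arrays were high-score, 4 middle and 3 low-score. Other groups shifted too. BXD had 12 high-score, 11 middle and 7 low-score arrays with the 3, and 8, 11 and 9 without them. Classical high-score arrays went from 5 to 9. Results below are given with and without these 3 arrays.

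**Figure D1:**
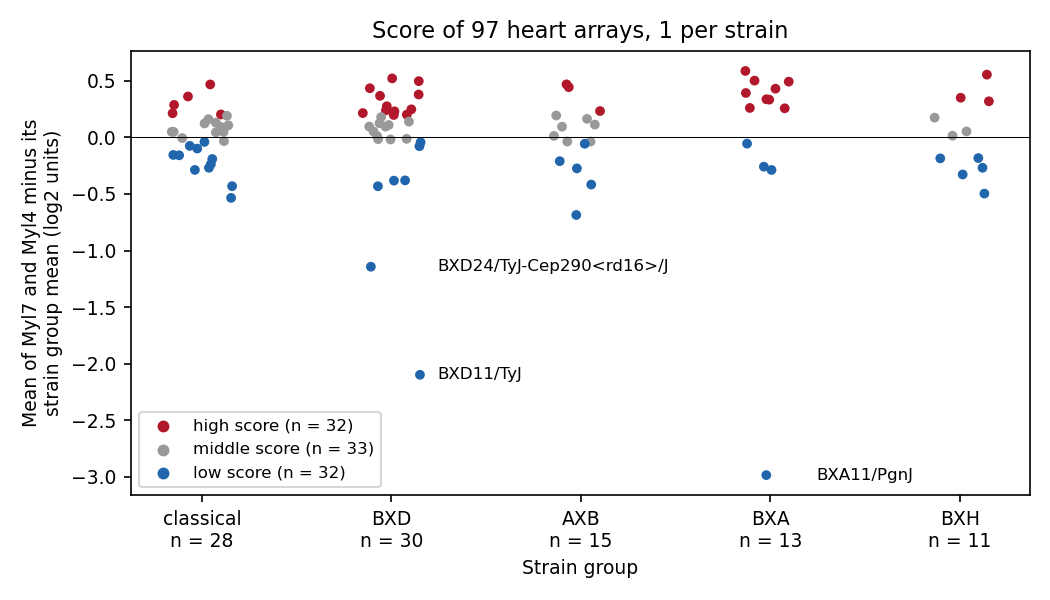
Score of each of the 97 ranked arrays (y axis, log2 units) by strain group (x axis), coloured by high, middle or low score. The 3 named arrays lie at -2.98, -2.10 and -1.14, below all other arrays, of which the lowest is at -0.69.

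Of 7511 genes tested besides Myl7 and Myl4, 235 (3.13%) were higher and 71 (0.945%) lower in high-score hearts (limma on group-centred log2 values, Benjamini-Hochberg adjusted p under 0.05). Without the 3 lowest arrays 127 genes (1.69%) were higher and 37 (0.493%) lower, and 126 genes were called in both. All 306 genes called with all arrays kept their sign without the 3. Both fits drew on mostly the same arrays, so the shared sign is not an independent check. The median difference over all genes was 0.012 log2 units, and 0.016 without the 3 arrays. Differences were mostly small: 19 of the genes that were higher differed by at least 0.5 log2 units, and of the genes that were lower the furthest reached -0.41. Samples also differed in ways other than the score. Transcripts of lung, liver, squamous epithelium, fast skeletal muscle or thymus stood more than 2 log2 units above the median of all arrays in 11 high-score, 17 middle and 9 low-score arrays. The Gapdh control, 3-prime minus 5-prime probe set, had a median of -0.24 log2 units in high-score hearts and -0.35 in low-score hearts, and that of actin 2.15 and 1.96. Fits that left out such arrays or took a control as a covariate are given next, and what caused their shifts in count was not tested. Without the arrays carrying another organ's transcripts (20 against 20 arrays ranked again) 41 genes (0.546%) were higher and 5 (0.0666%) lower. With the Gapdh control as a covariate 58 (0.772%) were higher and 8 (0.107%) lower, and with the actin control 74 (0.985%) and 12 (0.16%). For lists with called members, calls lost in these fits are named below.

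Several known atrial genes were higher in high-score hearts. Of 20 entries in a list of atrial muscle genes, which leaves out Myl7 and Myl4, 14 were on the array and 13 bright enough to test. Of these 13, 6 rose (Dkk3, Stard10, Bmp10, Nppa, Tbx5 and Nr2f2) and 0 fell, against 3.13% and 0.945% of all genes. This list and those below were chosen with earlier results of these data known, so such shares describe the lists and do not test them. The median of the 13 differences was 0.19 log2 units. Without the 3 lowest arrays Dkk3, Bmp10 and Nppa were still called, and the median was 0.18. Dkk3, Bmp10, Nppa and Stard10 were called without the arrays carrying another organ's transcripts and with the actin control, and these 4 with Tbx5 with the Gapdh control. Some other atrial transcripts moved with the score, while the potassium channel genes of the list, given below, did not pass the test.

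Nppa, which encodes atrial natriuretic peptide, lay between 12.86 and 13.31 log2 units in high-score hearts (median 13.13) and between 11.63 and 13.16 in low-score hearts (median 12.84). After centring by strain group all 32 high-score arrays lay above the low-score median, and 21 of them above every low-score array. The 3 arrays of lowest score were at 11.63 (BXA11/PgnJ), 12.50 (BXD11/TyJ) and 12.22 (BXD24/TyJ-Cep290<rd16>/J), and 1 other low-score array, at 12.42, was also below 12.50. The difference was 0.36 ± 0.05 log2 units (SE), or 1.29-fold (adjusted p = 4.39e-06), and 0.28 ± 0.03 without the 3 arrays (adjusted p = 3.69e-07). The highest value deposited for any probe set was 13.695, so Nppa was read close to the top of the scale, and what that did to its difference was not tested.

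The stretch before the Nppa start is shown because it is a well-studied cardiac promoter. Tbx5, called beside Nppa with all arrays, encodes a T-box factor, and a relation of Nppa with Tbx5 was not tested. Promoters of 2 genes are printed from RefSeq (GRCm38.p6), the last 250 bases before the annotated start, 5′ to 3′, with motif matches in capitals: AGGTGT for T-box factors, TNAAGTG for Nkx2-5 and GATAAG for GATA factors, each searched on both strands.
Nppa, chr4:148000472-148000721, plus strand: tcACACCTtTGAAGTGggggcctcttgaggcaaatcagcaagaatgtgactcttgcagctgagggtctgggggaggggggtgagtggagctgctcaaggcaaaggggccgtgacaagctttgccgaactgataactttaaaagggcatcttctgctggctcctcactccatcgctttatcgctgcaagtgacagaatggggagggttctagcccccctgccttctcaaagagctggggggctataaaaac
Bmp10, chr6:87428744-87428993, plus strand: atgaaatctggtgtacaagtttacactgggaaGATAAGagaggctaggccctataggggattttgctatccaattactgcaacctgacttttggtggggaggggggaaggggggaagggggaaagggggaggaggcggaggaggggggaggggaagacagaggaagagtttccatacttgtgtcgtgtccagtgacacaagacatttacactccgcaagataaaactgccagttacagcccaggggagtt
In Nppa the T-box letters lay on the other strand at -248 to -243 and the Nkx2-5 letters on the printed strand at -241 to -235, counted from the start and without overlap. In Bmp10 the GATA letters lay at -218 to -213. Of 10 genes searched, the 6 called atrial genes with Fgf12, Npr3, Myl7 and Myl4, 8 had an entry. Among these 8, AGGTGT was found in Nppa and Fgf12, TNAAGTG in Nppa, and GATAAG in Bmp10 and Myl7. Among 32851 promoters of the same length the letters occurred in 11.8%, 10.1% and 6.5%, so a match by itself is common.

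Bmp10, a secreted ligand of the bone morphogenetic protein family made by atrial muscle in the adult heart, lay between 3.83 and 6.10 log2 units in high-score hearts (median 4.83) and between 3.13 and 5.57 in low-score hearts (median 4.38). The ranges overlapped, but 29 of 32 high-score arrays were above the low-score median after centring. It differed by 0.78 ± 0.15 log2 units, or 1.72-fold (adjusted p = 0.000729), and by 0.80 ± 0.15 without the 3 lowest arrays (adjusted p = 0.000975). Dkk3, a secreted protein of the dickkopf family, ran from 7.61 to 9.13 in high-score hearts (median 8.50) and from 5.62 to 8.66 in low-score hearts (median 7.83). BXA11/PgnJ at 5.62 and BXD11/TyJ at 6.23 were its lowest arrays, and 31 of 32 high-score arrays lay above the low-score median. The difference was 0.81 ± 0.12 log2 units, 1.76-fold (adjusted p = 6.63e-06), and 0.66 ± 0.09 without the 3 (adjusted p = 4.97e-06). A second Dkk3 probe set gave 0.83.

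Stard10, a lipid transfer protein, lay between 8.09 and 9.29 log2 units in high-score hearts (median 8.64) and between 6.21 and 8.55 in low-score hearts (median 7.98). All 32 high-score arrays were above the low-score median and 20 above every low-score array, while the 3 arrays of lowest score had 6.21, 6.45 and 6.92. The difference was 0.78 ± 0.10 log2 units, 1.72-fold (adjusted p = 3.55e-07). Without the 3 arrays it was 0.47 ± 0.17 and lost the call (adjusted p = 0.124). The array of the classical strain I/LnJ then moved into the high-score set. I/LnJ had a Stard10 level of 3.49, close to the floor of the array, with an ordinary score of 0.12, and the next lowest array outside the 3 had 7.35. With I/LnJ left out too, Stard10 differed by 0.64 ± 0.07 log2 units (adjusted p = 2.91e-10), an alternative chosen after the value of I/LnJ was seen.

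Both atrial transcription factors of the list showed small differences. Tbx5 ran from 5.68 to 6.65 log2 units in high-score hearts (median 6.20) and from 4.91 to 6.62 in low-score hearts (median 6.02). The groups overlapped over most of this range, and 28 of 32 high-score arrays were above the low-score median. It rose by 0.28 ± 0.08 log2 units (adjusted p = 0.0202), but not past the test without the 3 arrays (0.22 ± 0.08, adjusted p = 0.102), nor without the arrays carrying another organ's transcripts (0.34, adjusted p = 0.0573), nor with the actin control (0.26, adjusted p = 0.0842). Nr2f2, a nuclear receptor also called COUP-TFII, ran from 4.62 to 6.04 in high-score hearts (median 5.22) and from 4.31 to 5.60 in low-score hearts (median 5.10). It rose by 0.26 ± 0.07 (adjusted p = 0.0268), and by 0.22 ± 0.07 without the 3 arrays, which missed the test (adjusted p = 0.0744), as it did without the arrays carrying another organ's transcripts (adjusted p = 0.147) and with the Gapdh and actin controls (adjusted p = 0.214 and 0.208). Dimmer Nr2f2 probe sets, with means of 3.68 and 3.62 log2 units, gave 0.01 and 0.12. The middle hearts had the highest median, 5.31.

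The remaining atrial genes did not pass the test. The potassium channel genes Kcnk3, Kcnj3, Kcna5 and Kcnj5 differed by 0.18, 0.11, 0.09 and 0.08 log2 units (adjusted p = 0.234 to 0.557). Other Kcnk3 probe sets, with means of 5.25 and 4.92 log2 units, gave 0.0061 and -0.15. Angpt1, a vessel growth factor, differed by 0.19 ± 0.13, Gja5, the connexin of atrial and conduction cells, by -0.05 ± 0.05, and Pam, a peptide-processing enzyme of atrial granules, by -0.20 ± 0.22. Pam varied widely whatever the score, from 7.25 to 11.03 log2 units in high-score hearts and from 7.43 to 11.10 in low-score hearts. Cacna1d, a calcium channel subunit, was too dim to test.

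**Figure D2:**
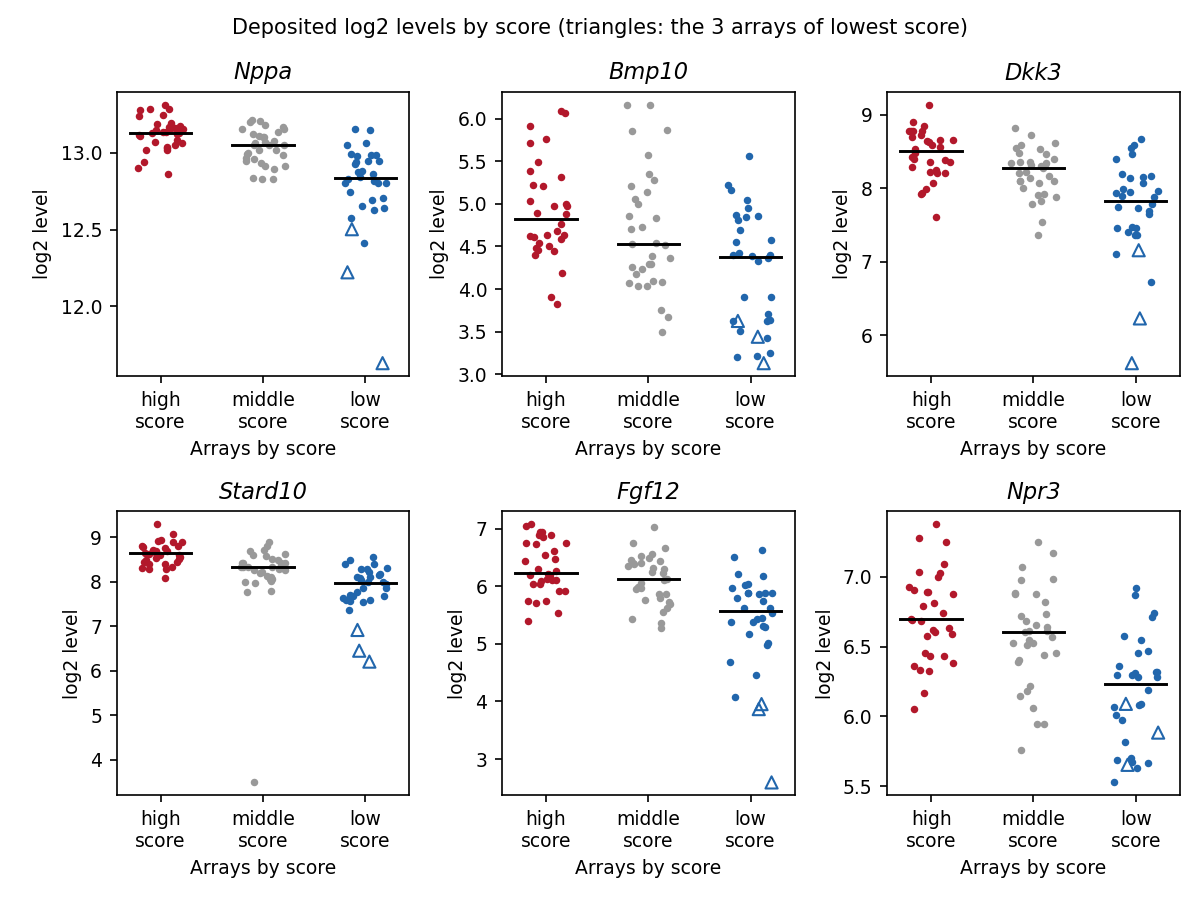
Deposited log2 levels of 6 genes (y axes) in each array of high, middle and low score (x axes), with bars at the medians and triangles for the 3 arrays of lowest score. The high-score medians of Nppa (13.13), Dkk3 (8.50) and Fgf12 (6.24) lie above the low-score ones (12.84, 7.83 and 5.58), and 1 middle array, I/LnJ, has Stard10 at 3.49.

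Of the genes of ventricular muscle Pln was the one called. Of 8 tested genes of the ventricular list 0 rose and 1 fell, against 3.13% and 0.945% of all genes, and their median was -0.03 log2 units. Pln encodes phospholamban, which restrains the calcium pump of the sarcoplasmic reticulum and is more abundant in ventricle than atrium. It lay between 12.68 and 12.96 log2 units in high-score hearts (median 12.83) and between 12.72 and 13.05 in low-score hearts (median 12.96). In 28 of 32 high-score arrays it was below the low-score median, although the ranges overlapped. It fell by 0.09 on the log2 scale, 1.06-fold (SE 0.02, adjusted p = 0.00826), also without the 3 arrays (-0.08, adjusted p = 0.025), but not with the Gapdh or actin control as a covariate (-0.05 and -0.06, adjusted p = 0.146 and 0.0831) or without the arrays carrying another organ's transcripts (-0.08, adjusted p = 0.164). Other Pln probe sets, with means of 12.66 and 12.58 log2 units, gave -0.03 and -0.11. The ventricular light chains differed by -0.0037 ± 0.014 (Myl2) and -0.015 ± 0.018 (Myl3) without a call. Myl2 lay between 13.49 and 13.64 in high-score hearts and between 13.44 and 13.65 in low-score hearts, and Myl3 between 13.13 and 13.34 in high-score hearts and between 13.13 and 13.37 in low-score hearts. Both were read close to the highest deposited value, 13.695, so these readings do not show whether the transcripts differed. Other Myl3 probe sets, with means of 13.21 and 12.03 log2 units, gave 0.0093 and -0.0255. Kcnip2 and Fhl2 differed by -0.18 and -0.14 and Irx5 by -0.05, while Gja1 differed by 0.03 and Myh7 by 0.07, none of them called. The probe sets of Gja1 disagreed: its others, with means of 9.21, 8.90, 7.87 and 4.30 log2 units, gave 0.01, -0.29, 0.08 and -0.03. A dimmer Myh7 probe set, with a mean of 9.81, gave 0.15, and a dimmer Kcnip2 one, with a mean of 3.32, gave -0.05. Irx4, Hey2 and Kcnj2 were too dim to test.

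**Figure D3:**
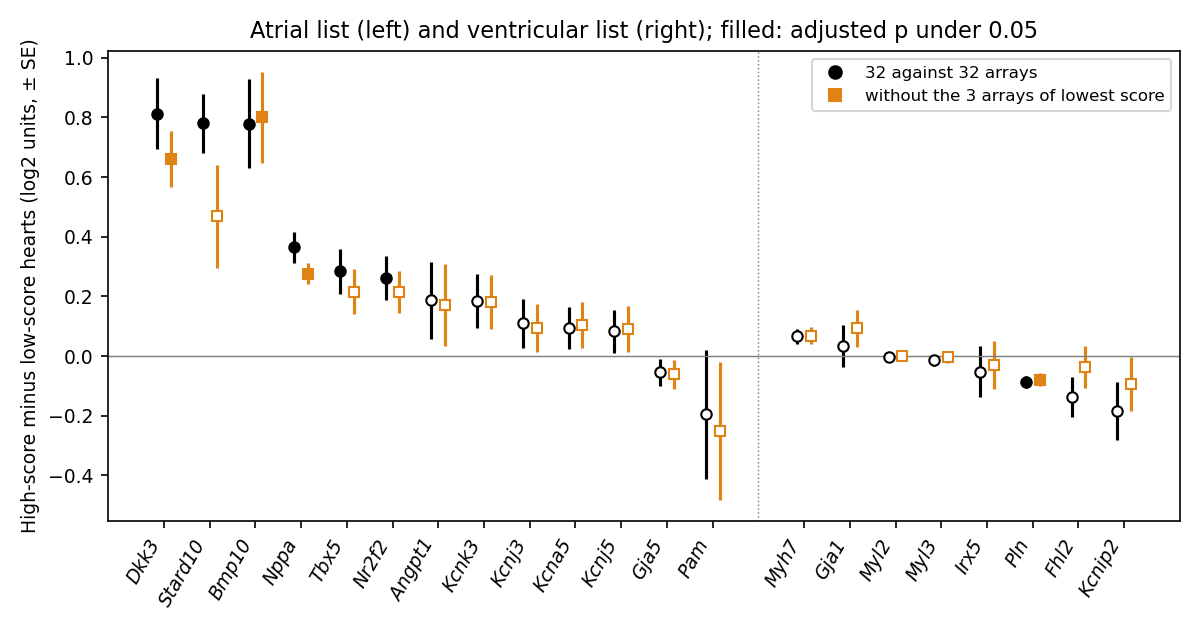
Difference of each tested atrial gene (left) and ventricular gene (right) between high-score and low-score hearts in log2 units, with SE. Circles use all 64 arrays and squares leave out the 3 of lowest score, and filled symbols have an adjusted p under 0.05, which 6 atrial genes reach with all arrays and 3 without those 3.

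The natriuretic peptide system had 3 of 5 tested genes higher and 0 lower, against 3.13% and 0.945% of all genes, and the same 3 without the 3 lowest arrays (1.69% of all genes higher). Nppa and Npr3 were also called without the arrays carrying another organ's transcripts and with either control. Beside Nppa these were receptor genes. Npr3, the clearance receptor that removes natriuretic peptides, lay between 6.05 and 7.38 log2 units in high-score hearts (median 6.69) and between 5.53 and 6.92 in low-score hearts (median 6.23). After centring 30 of 32 high-score arrays exceeded the low-score median and 14 low-score arrays fell below every high-score one. Npr3 rose by 0.53 ± 0.09 log2 units, 1.45-fold (adjusted p = 6.29e-05), and by 0.50 ± 0.08 without the 3 arrays (adjusted p = 7.08e-05). Its dimmer probe sets gave 0.27 and 0.17. Npr2, the receptor of C-type natriuretic peptide, rose by 0.19 ± 0.05 (adjusted p = 0.0221). That call was lost with the Gapdh and actin controls as covariates (0.13 and 0.11, adjusted p = 0.246 and 0.239) and without the arrays carrying another organ's transcripts (0.17, adjusted p = 0.136). Nppb, which encodes the related B-type peptide, differed by 0.18 ± 0.13, and Corin, the protease that cuts the precursor of atrial natriuretic peptide, by 0.05 ± 0.06, neither of them called.

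Outside the atrial list, Fgf12 had the largest difference among genes called in each setting with all strain groups. It encodes an intracellular fibroblast growth factor homologue that binds voltage-gated sodium channels. Fgf12 lay between 5.41 and 7.08 log2 units in high-score hearts (median 6.24) and between 2.59 and 6.64 in low-score hearts (median 5.58). BXA11/PgnJ had 2.59, BXD24/TyJ-Cep290<rd16>/J 3.87 and BXD11/TyJ 3.95, below every other array, of which the lowest had 4.07. The difference was 1.01 ± 0.15 log2 units, 2.02-fold (adjusted p = 1.35e-05), and 0.77 ± 0.11 without the 3 (adjusted p = 1.29e-05). In all, 19 genes were called in the same direction with all arrays and in each of 15 other settings that kept all strain groups, and all 19 were higher. A further such setting, the brightness filter at the 60th percentile, left 15 of the 19 to test and called all 15, while Bmp10, Mrvi1, Sytl2 and Tmem163 were too dim for it. This set was picked out after the values were seen. It held Fgf12, Dkk3, Bmp10, Npr3 and Nppa with Tmem163, Olfm1, Psd3, Prkag2, Sort1, Sytl2, Creb3l2, Igfbp4, Gprc5b, Mrvi1, Nrtn, Selenom, Cand1 and Maged1. Of the last 14, Tmem163, a zinc transporter, differed by 0.48 ± 0.08, Olfm1, a secreted olfactomedin, by 0.47 ± 0.08, Prkag2, a subunit of AMP-activated kinase, by 0.40 ± 0.08, and Nrtn, which encodes the neurotrophic factor neurturin, by 0.27 ± 0.05.

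Genes of the heart's outer layer were higher as well. Of 10 tested genes of epicardium and mesothelium 5 rose and 0 fell, against 3.13% and 0.945% of all genes, with a median of 0.21 log2 units. Without the 3 arrays 3 rose (Upk3b, Efemp1 and Gpm6a; 1.69% of all genes) and the median was 0.19. Without the arrays carrying another organ's transcripts 0 of the 10 were called by limma (0.546% of all genes), while 2 were with the Gapdh control (Krt19 and Upk3b) and 3 with the actin control (these and Efemp1). Upk3b, a uroplakin of mesothelial cells, lay between 5.30 and 7.64 log2 units in high-score hearts (median 6.96) and between 4.50 and 7.47 in low-score hearts (median 6.34). It rose by 0.62 ± 0.13, 1.53-fold (adjusted p = 0.00165), and by 0.45 ± 0.11 without the 3 arrays (adjusted p = 0.02). BXD11/TyJ (4.50) and BXA11/PgnJ (4.68) had its lowest values, while BXD24/TyJ-Cep290<rd16>/J (6.05) did not stand apart. Krt19, an epithelial keratin, rose by 0.56 ± 0.11 (adjusted p = 0.000958), but by 0.36 and not past the test without the 3 arrays (adjusted p = 0.117), and by 0.15 without the arrays carrying another organ's transcripts (adjusted p = 0.488). Without those arrays Upk3b differed by 0.59 (adjusted p = 0.125). Efemp1, a fibulin of the matrix, rose by 0.43 ± 0.10 with all arrays and differed by 0.38 without those arrays (adjusted p = 0.13). Rspo1, an activator of Wnt signalling, rose by 0.23 ± 0.06, but was not called without the 3 lowest arrays (0.19, adjusted p = 0.0713), with either control, or without the arrays of other organs (0.16, adjusted p = 0.323). Gpm6a, a membrane glycoprotein, rose by 0.18 ± 0.04.

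Vessel wall genes moved the same way with smaller differences. In the smooth muscle list 4 of 10 tested genes rose and 0 fell (median 0.18 log2 units), against 3.13% and 0.945% of all genes. Without the 3 lowest arrays 3 rose (1.69% of all genes), with each control 2 (Cnn1 and Myh11), and without the arrays carrying another organ's transcripts 0 of 10 were called by limma. Myh11, the smooth muscle myosin heavy chain, lay between 5.55 and 6.95 in high-score hearts (median 5.97) and between 4.94 and 6.26 in low-score hearts (median 5.74), a rise of 0.35 ± 0.07 (adjusted p = 0.00121). A dimmer Myh11 probe set, with a mean of 3.28 log2 units, gave 0.0093. Cnn1, calponin, rose by 0.48 ± 0.13, Eln, elastin, by 0.28 ± 0.08 and Mustn1 by 0.24 ± 0.06. Eln differed by 0.13 without the 3 lowest arrays (adjusted p = 0.465) and by 0.14 with its probe sets averaged (adjusted p = 0.134), neither of them called. Without the arrays carrying another organ's transcripts Cnn1, Myh11, Eln and Mustn1 differed by 0.13, 0.21, 0.20 and 0.09 (adjusted p = 0.659, 0.21, 0.411 and 0.607). In the list of endothelium and endocardium 3 of 14 rose and 0 fell, against the same shares of all genes, and all 14 differences were positive (median 0.16). Vwf, von Willebrand factor, rose by 0.34 ± 0.09, Cdh5, the cadherin of endothelial junctions, by 0.31 ± 0.07 and Eng, a receptor for transforming growth factor beta and for Bmp10, by 0.20 ± 0.06. Of these Cdh5 was called without the 3 lowest arrays. Dimmer probe sets gave 0.08 for Cdh5 and 0.19 for Eng. None of the 3 was called with the Gapdh control (adjusted p = 0.0967 for Cdh5, 0.214 for Vwf and 0.283 for Eng), with the actin control (0.0697 to 0.175) or without the arrays carrying another organ's transcripts (0.135 to 0.205). In the fibroblast list 0 of 14 were called by limma, although all 14 differences were positive (median 0.13).

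**Figure D4:**
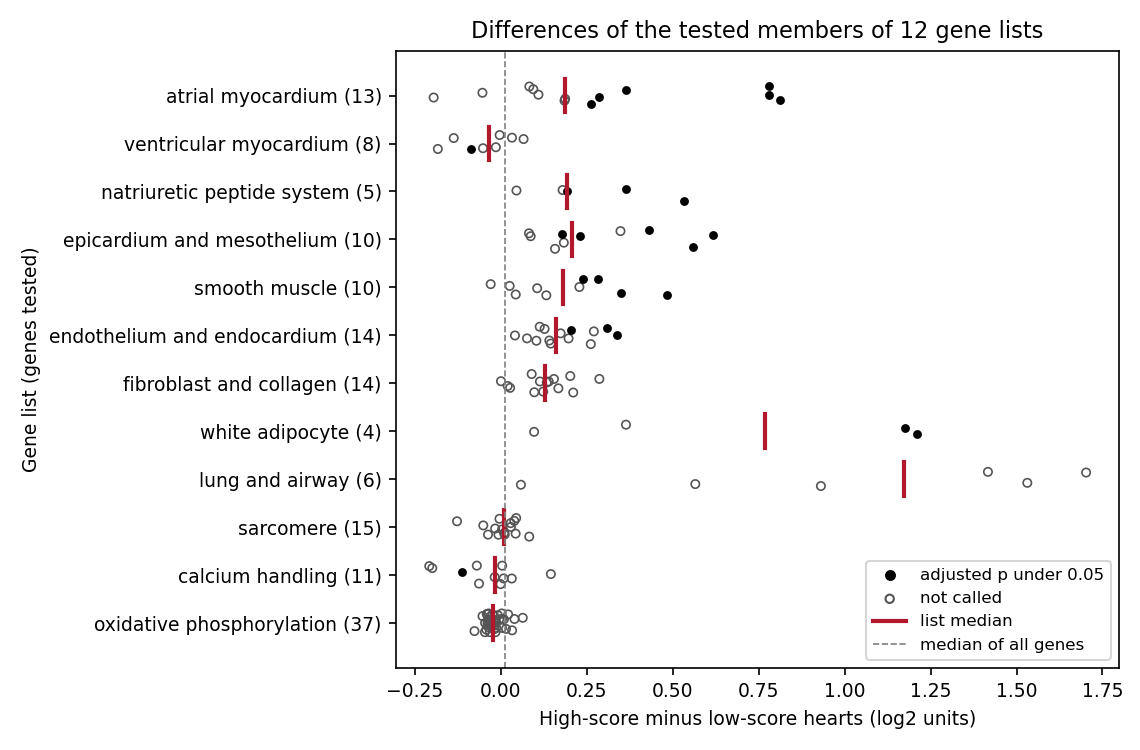
Differences between high-score and low-score hearts (x axis, log2 units) of the tested members of 12 gene lists (y axis, with the number tested). Filled points have an adjusted p under 0.05, red bars mark list medians, and the dashed line marks the median of all genes, 0.012.

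Among the 15 largest rises were Hamp, 2 adipocyte genes and 2 genes of fatty acid synthesis. Hamp, which encodes the iron hormone hepcidin and is made in heart muscle as well as liver, lay between 5.99 and 10.58 log2 units in high-score hearts (median 8.42) and between 3.96 and 9.94 in low-score hearts (median 6.96). All 32 high-score arrays were above the low-score median after centring. It rose by 1.29 ± 0.27, 2.45-fold (adjusted p = 0.00245), and by 1.07 ± 0.26 without the 3 arrays (adjusted p = 0.0182), but was not called without the arrays carrying another organ's transcripts (1.14, adjusted p = 0.126). Of 4 tested genes of the white adipocyte list 2 rose and 0 fell, against 3.13% and 0.945% of all genes (median 0.77), 2 with the actin control, and 0 by limma without the 3 lowest arrays, with the Gapdh control or without the arrays carrying another organ's transcripts. Car3 and Adipoq were the 2, with rises of 1.21 ± 0.34 and 1.17 ± 0.30, while Retn differed by 0.36 and Fabp4 by 0.10 without a call. The fatty acid synthesis genes Scd1 and Fasn, which stand in none of the lists, rose by 1.28 ± 0.32 and 1.02 ± 0.24. Adipoq, the fat cell hormone adiponectin, ran from 3.53 to 9.32 in high-score hearts and from 3.55 to 8.12 in low-score hearts, so the groups overlapped almost fully. Car3, Adipoq, Scd1 and Fasn were not called without the 3 lowest arrays: Car3 0.72, Adipoq 0.73, Scd1 0.91 and Fasn 0.78, with adjusted p from 0.102 to 0.292. Ucp1, the uncoupling protein of brown fat, differed by 1.25 ± 0.52 without a call (adjusted p = 0.154).

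The 15 largest rises also held Scgb3a1, Ltf, Bpifb1, Igkj1 and Cxcl13. Scgb3a1, a secretoglobin of airway epithelium, Ltf, lactoferrin, and Bpifb1, a secreted airway protein, rose by 1.41 ± 0.39, 0.82 ± 0.22 and 0.67 ± 0.19 log2 units. Without the arrays carrying another organ's transcripts their differences were -0.14, -0.03 and -0.07, and without the 3 lowest arrays none of the 3 was called (adjusted p = 0.162 to 0.25). None of the 6 tested lung and airway genes was called by limma, though all 6 were positive (median 1.17), and the mean of that list ran from 3.16 to 10.14 in high-score hearts and from 3.23 to 9.38 in low-score hearts. Scgb1a1, the defining airway marker, ran from 3.02 to 12.93 in high-score hearts and from 3.23 to 12.98 in low-score hearts. More than 2 log2 units of lung transcript above the median was seen in 9 high-score, 14 middle and 3 low-score arrays. Igkj1, an immunoglobulin light chain segment, and Cxcl13, a chemokine that attracts B cells, rose by 1.33 ± 0.38 and 1.03 ± 0.27, and neither was called without the 3 lowest arrays (0.78 and 0.66). In the immune lists limma called 0 of 2 B cell, 0 of 2 T cell and 0 of 11 macrophage genes, against 3.13% of all genes higher and 0.945% lower. Alb, Krt4 and Myh1, markers of liver, squamous epithelium and fast skeletal muscle, differed by 0.89, -0.15 and 0.12 without a call (adjusted p from 0.415 to 0.891). Cd3e, Tg and Prph, markers of T cells, thyroid and neurons, were too dim to test.

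Genes lower in high-score hearts differed little. The 15 with the largest differences were Hsd17b7, Rnf166, P2ry1, Golph3, Rtn4ip1, Mrpl50, Gstm7, Blzf1, Mgme1, Bzw2, Atp1b1, Smad5, Phospho2, Gfm2 and Usp15, from -0.41 to -0.22 log2 units. Hsd17b7, an enzyme of cholesterol synthesis, fell by 0.41 (SE 0.13, adjusted p = 0.0475), and P2ry1, a receptor for ADP, by 0.32 (SE 0.09, adjusted p = 0.0293). Mgme1, an exonuclease of mitochondrial DNA, fell by 0.26 (SE 0.07, adjusted p = 0.0255). Atp1b1, the beta subunit of the sodium pump, fell by 0.23 (SE 0.06, adjusted p = 0.0102). Dimmer probe sets gave 0.04 and -0.10 for Golph3, -0.0051 for Smad5 and 0.03 for Gfm2. Without the 3 lowest arrays 2 of the 15, Blzf1 (-0.28) and Mgme1 (-0.25), were called. Rnf166 was the 1 called with either control, and limma called 0 of the 15 without the arrays carrying another organ's transcripts.

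Lists of the shared contractile and energy machinery are set against 3.13% of all genes called higher and 0.945% called lower. At those shares lists of this size would hold few calls, so low counts do not set these genes apart. In the sarcomere list 0 of 15 were called by limma (median 0.0094 log2 units), and in oxidative phosphorylation 0 of 37 (median -0.02), of which 9 were positive. Of 11 calcium handling genes 1 fell and 0 rose: S100a1, a calcium sensor of heart muscle, by 0.11 (SE 0.03, adjusted p = 0.0125). Of 20 genes of fatty acid oxidation 1 fell and 0 rose: Etfa, a subunit of the electron transfer flavoprotein, by 0.11 (SE 0.02, adjusted p = 0.00445). Both were called without the 3 arrays as well, but neither with the Gapdh control (adjusted p = 0.143 and 0.0876) nor without the arrays carrying another organ's transcripts (0.299 and 0.132), and S100a1 not with the actin control (0.0792). Cilp2 of the valve list (0.15) and Pmp22 of the Schwann cell list (0.21) were the called members there, and neither was called without the 3 lowest arrays (adjusted p = 0.0553 and 0.0545), with the Gapdh control or without the arrays carrying another organ's transcripts, nor Cilp2 with the actin control. With all arrays no member was called in the lists of pacemaker and conduction tissue, secretory granule, other potassium and sodium channels, retinoic acid, neuron, macrophage, B cell, T cell, brown adipocyte, liver, squamous epithelium, skeletal muscle, erythroid cell, melanocyte, immediate early genes, clock or glycolysis. Without the 3 lowest arrays Gjc1, a connexin of the conduction system, was called (0.18, adjusted p = 0.0458), and with the Gapdh control Ldhb, a subunit of lactate dehydrogenase, was called lower.

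Nppa, Bmp10, Dkk3, Stard10, Fgf12 and Npr3 differed in the same direction within each set of strains taken alone. These genes had been called on the same arrays pooled, so the shared sign is not an independent check. Of the 306 called genes, 285 had the sign of the pooled fit in all 4 sets, against 28.9% of all genes tested. Nppa differed by 0.44 log2 units in BXD (12 high-score and 7 low-score arrays), 0.43 in AXB and BXA (12 and 9), 0.25 in the classical strains (5 and 11) and 0.36 in BXH (3 and 5). Dkk3 differed by 0.98, 0.90, 0.62 and 0.92, and Fgf12 by 1.20, 1.32, 0.92 and 0.45 in the same order. Tbx5 differed by 0.56 in BXD, 0.41 in AXB and BXA, -0.07 in the classical strains and 0.19 in BXH. In fits within 1 set of strains limma called 3 genes in AXB and BXA and 0 in BXD, in the classical strains and in BXH, where 807, 736 and 558 genes had an unadjusted p under 0.05. A test of whether the difference varied between strain groups called 0 genes (357 with an unadjusted p under 0.05, smallest adjusted p 0.0728). Without the arrays carrying another organ's transcripts, which leaves BXH out of that test, it called 7: Hspa1b, Atf5, Txn1, Fzd4, Nppa, Dnajb1 and Asns.

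Over all 97 arrays Nppa rose with the score, and parts of the score range were not tested apart. After centring by strain group Pearson's r was 0.86 and Spearman's rho 0.78 (permutation within strain groups, two-sided, p = 1e-05 for each, the smallest that 100000 permutations can give, and 2.5e-05 and 5e-05 after adjustment over 5 relations). Without the 2 arrays farthest from the median score r was 0.82, without the 3 lowest 0.77, and within strain groups it ran from 0.73 in the classical strains to 0.97 in BXA. Tbx5 had r = 0.46 and rho = 0.38 (permutation p = 1e-05 and 0.00013, adjusted 2.5e-05 and 0.000325), with r = 0.30 without the 3 lowest arrays. Within groups Tbx5 ran from 0.82 in BXA to -0.14 in the classical strains. Myl2, read close to the top of the scale, had r = -0.10 and rho = -0.05 (permutation p = 0.355 and 0.596, adjusted 0.444 and 0.647). The Gapdh control had r = 0.24 and rho = 0.28 (permutation p = 0.00972 and 0.00548, adjusted 0.0162 and 0.00913). Without the 2 farthest arrays its r of 0.19 missed the test (permutation, adjusted p = 0.116), while its rho of 0.25 passed (adjusted p = 0.0332). Without the 3 lowest arrays its r was 0.30 and its rho 0.29 (permutation, adjusted p = 0.00827 and 0.0109). The number in the sample title had r = 0.0064 and rho = -0.04 (permutation p = 0.933 and 0.647, adjusted 0.933 and 0.647).

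**Figure D5:**
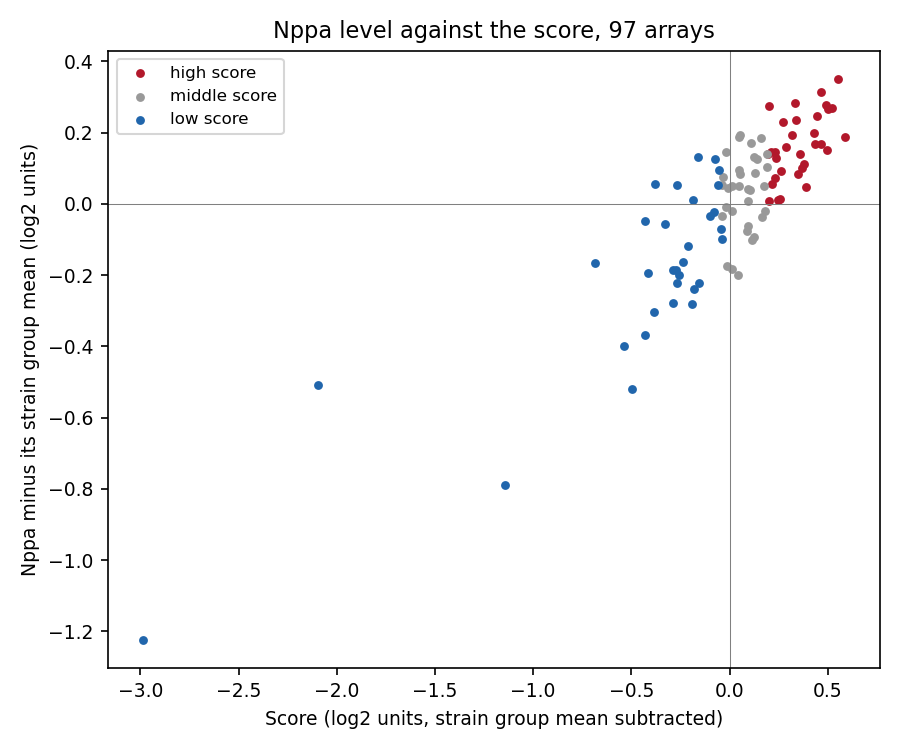
Nppa level minus its strain group mean (y axis, log2 units) against the score (x axis, log2 units) for 97 arrays, coloured by high, middle or low score. The points rise together with r = 0.86, and r is 0.77 without the 3 arrays at the far left.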

How the data were processed

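RNA of 99 mouse hearts was measured on Affymetrix HT_MG-430A arrays. The deposited log2 values cover 22416 probe sets. Per the submitters' processing notes, GCOS and RMA (no versions given) made them. RMA corrects background, normalises by quantiles and sums probes, so arrays share a distribution (medians 3.97 to 4.07). Scanner files were not analysed here. Of the probe sets 17783 had 1 symbol in the platform annotation, 284 several and 4349 none; 17759 matched RefSeq by Entrez identifier. Each of 11725 genes took its brightest probe set, and 7513 had a mean above the 40th percentile (3.59 log2 units).

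Values were centred on the mean of the strain group, and the 32 arrays of highest and of lowest score compared with limma 3.58.1 (R 4.3.3; Benjamini-Hochberg adjusted p under 0.05). Centring uses degrees of freedom that the fit does not count; strain group as a term is an alternative. The 33 lists had 425 entries, of which 359 had a probe set and 275 were tested. Sln had no named probe set, so 5 of 6 planned relations were run. Named genes were all chamber list members, the 15 largest called differences each way, up to 4 called members of other lists, and defining markers; other names were chosen after their values were seen. The members and lists were chosen with earlier results of these data known. The fits and permutations were tested on simulated data. The age label, 16 to 113 weeks, rises along the sample order while the protocol gives 16, and was not used. No genome build is given for the array values. Python 3.11.15, numpy 2.4.6, scipy 1.17.1, pandas 2.3.3 and matplotlib 3.10.9 were used.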

Additional observations from a re-analysis of the deposited data

How the results depend on the processing

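Counts of genes higher and lower, 235 and 71 in the main fit, lay within 1.5 times under no filter (177 and 57), the 60th percentile (194 and 73), strain group as a term (238 and 89), the outer 24 arrays each way (197 and 74), averaged families (216 and 80) and averaged probe sets (168 and 54). They were 82 and 36 with the score as a slope, 43 and 1 with Myl7 alone, 309 and 132 with Myl4 alone, 58 and 8 with the Gapdh control as covariate, 74 and 12 with the actin control, 186 and 37 with the title number, 41 and 5 without the arrays carrying another organ's transcripts, 3 and 0 within AXB and BXA, and 0 and 0 within BXD, the classical strains and BXH alike, where fewer arrays enter. Chosen after seeing the data, leaving out the 3 lowest arrays gave 127 and 37, these and I/LnJ 129 and 34, and centring the score on group medians 191 and 54. The causes of these shifts were not tested. The interaction called 7 genes in place of 0 without the arrays carrying another organ's transcripts. The r with the score changed sign for Tbx5 within the classical strains (-0.14), for Myl2 without the 3 lowest arrays (0.028), within BXD (0.13) and within BXH (0.21), and for the title number without the 2 farthest (-0.048) or the 3 lowest arrays (-0.099), and within the classical strains (-0.11), AXB (-0.0087) and BXH (-0.032). It missed the test for Tbx5 within AXB (0.42) and BXH (0.51), and for the Gapdh control without the 2 farthest arrays (0.19), without the arrays carrying another organ's transcripts (0.23), and within the classical strains (0.29), BXD (0.25), AXB (0.28), BXA (0.29) and BXH (0.40). Of 50 called named genes, 18 stayed called without the 3 lowest arrays, 6 without the arrays carrying another organ's transcripts and 15 with the Gapdh control, and 0 changed sign in any setting that kept all strain groups and arrays. Signs changed as follows, in log2 units: Myl7 alone Kcna5 -0.029, Myl2 0.004, Irx5 0.034, Krt4 0.12. Within classical Kcnj3 -0.082, Kcnj5 -0.0087, Tbx5 -0.065, Myl3 0.0053, Irx5 0.18, Gja1 -0.012, Hsd17b7 0.12, Krt4 0.84. The score as a slope Gja5 0.062, Krt4 0.0081. Without other-organ arrays Gja5 0.018, Pam 0.075, Gja1 -0.024, Scgb3a1 -0.14, Ltf -0.034, Bpifb1 -0.071, Scgb1a1 -0.79. Within AXB and BXA Gja5 0.021, Pam 0.18, Fhl2 0.013, Alb -0.37. Within BXH Gja5 0.074, Myl2 0.038, Igkj1 -0.037, Gstm7 0.13, Pmp22 -0.053, Myh1 -0.73. Within BXD Myl2 0.018, Irx5 0.065, Gja1 -0.075. Without the 3 lowest Myl2 0.0017, Myh1 -0.0035. Mean of probe sets Gja1 -0.038. Actin covariate Gja1 -0.0074. The outer 24 each way Krt4 0.092. Without these and I/LnJ Myh1 -0.0043. No paired analysis was possible because the labels give no shared replicate numbers. The number of arrays limits the precision.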

Other observations

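The near-isogenic lines differed in score. BXD24/TyJ-Cep290<rd16>/J had a mean Myl7 and Myl4 level of 10.54 log2 units, against 11.67 in BXD24/TyJ. AXB19/PgnJ, AXB19a/PgnJ and AXB19b/PgnJ had 11.22, 11.43 and 11.65, so the last lay among the middle hearts and the other 2 among the low-score hearts. Among the parents of the panels, C3H/HeJ scored 0.47 (high-score), A/J 0.16 (middle), DBA/2J 0.11 (middle) and C57BL/6J -0.43 (low-score), each from 1 array of the classical group.

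The arrays that were not ranked had Myl7 levels of 11.52 (CAST/EiJ) and 11.86 (B6cC3-1/KccJ), and Nppa levels of 12.88 and 13.03 log2 units in that order. Over the ranked arrays, centred by group, Myl7 and Myl4 had a Pearson correlation of 0.95, and of 0.85 without the 3 lowest arrays, as a description of the genes that made the score. The strain I/LnJ, with Stard10 at 3.49 log2 units and a mean Myl7 and Myl4 level of 11.87, had 1 Stard10 probe set on the array, and whether its low reading lies in the transcript or in the probe's target was not tested.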
